A study of Mus musculus with 5 samples.

Results

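The genes described here encode the immunoproteasome and the machinery that loads peptides onto classical MHC class I molecules: Psmb8, Psmb9, Psmb10, Psme1, Psme2, Tap1, Tapbp, B2m, H2-K1 and H2-D1. They were taken by symbol from the count table, which holds 27179 Entrez gene identifiers. All 10 were found there by their current symbol, and all 10 were among the 17472 genes with enough counts to be tested. The tissue was ear skin of B6 mice. The comparison is between 3 control libraries whose titles read Cd1d +/- and whose genotype tag reads WT and 2 knockout (KO) libraries titled Cd1d -/-. The series sets the skin transcriptome of KO mice against that of controls. The sources used here give no allele design, age or treatment. The labels do not say that each library came from its own mouse, so p-values measure the spread between these 5 libraries, which may be technical.

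Cells cut their own proteins into peptides with the proteasome, and part of these peptides reaches the cell surface on MHC class I molecules, where CD8 T cells read them. When interferon acts on a cell, the 3 catalytic subunits of the constitutive proteasome are replaced in new particles by the immunoproteasome subunits, and the PA28 activator caps the particle. The resulting peptides are pumped into the endoplasmic reticulum by the TAP transporter and are fitted onto the heavy chain and beta-2 microglobulin with the help of tapasin. In skin, leukocytes and Langerhans cells carry much of this machinery, and keratinocytes induce it under interferon. Beta-2 microglobulin is also the light chain of CD1d, the lipid-presenting molecule that the KO mice lack.

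Total counts were between 32353957 and 79160005 a library, and levels are given in CPM, counts per library size with TMM factors. By total counts alone, without TMM factors, 1 read stood for 0.0126 to 0.0309 CPM. Cd1d1, the deleted gene, had 6.61, 9.87 and 5.52 CPM in controls 1, 2 and 3 and 1.19 and 1.12 CPM in KO 1 and 2. Both KO libraries lay below every control, with a log2 fold change of -2.67 (SE 0.29, edgeR quasi-likelihood test, Benjamini-Hochberg adjusted p = 0.0152), and the labels held. Markers of keratinocytes, fibroblasts, leukocytes, Langerhans cells and muscle were detected in all 5 libraries. KO 1 stood apart in hair follicle genes, whose 6 markers summed to 592 CPM there against 14.8 CPM in KO 2 and 11.3 to 20.4 CPM in controls.

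In KO skin the genes that passed the test were on the proteasome side of the pathway. Psmb9 and Psmb10, catalytic subunits, and Psme1, of the activator, passed as higher (3 of 10), and none of the 10 passed as lower. Over all tested genes 2.71% passed as higher and 1.05% as lower. The 10 genes had a median log2 fold change of 0.34, beside -0.02 over all tested genes. In 7 of the 10, both KO libraries lay above all 3 controls, which was so for 19.9% of all tested genes. With DESeq2 all 5 proteasome genes passed as higher (5 of 10, beside 6.31% of all tested genes) and none of the 10 as lower (beside 4.19%). In edgeR the count of 3 became 0 without control 1, KO 1 or KO 2 (5 of the 10 had an unadjusted p under 0.05 in each case, beside 13.2%, 10.6% and 13.0% of all tested genes), 4 without control 2 and 5 without control 3. It was also 0 once a trend with transcript length was taken out, as set out after the values of the single genes. In whole skin, fewer cells of a type and less RNA per cell cannot be told apart.

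**Figure D1:**
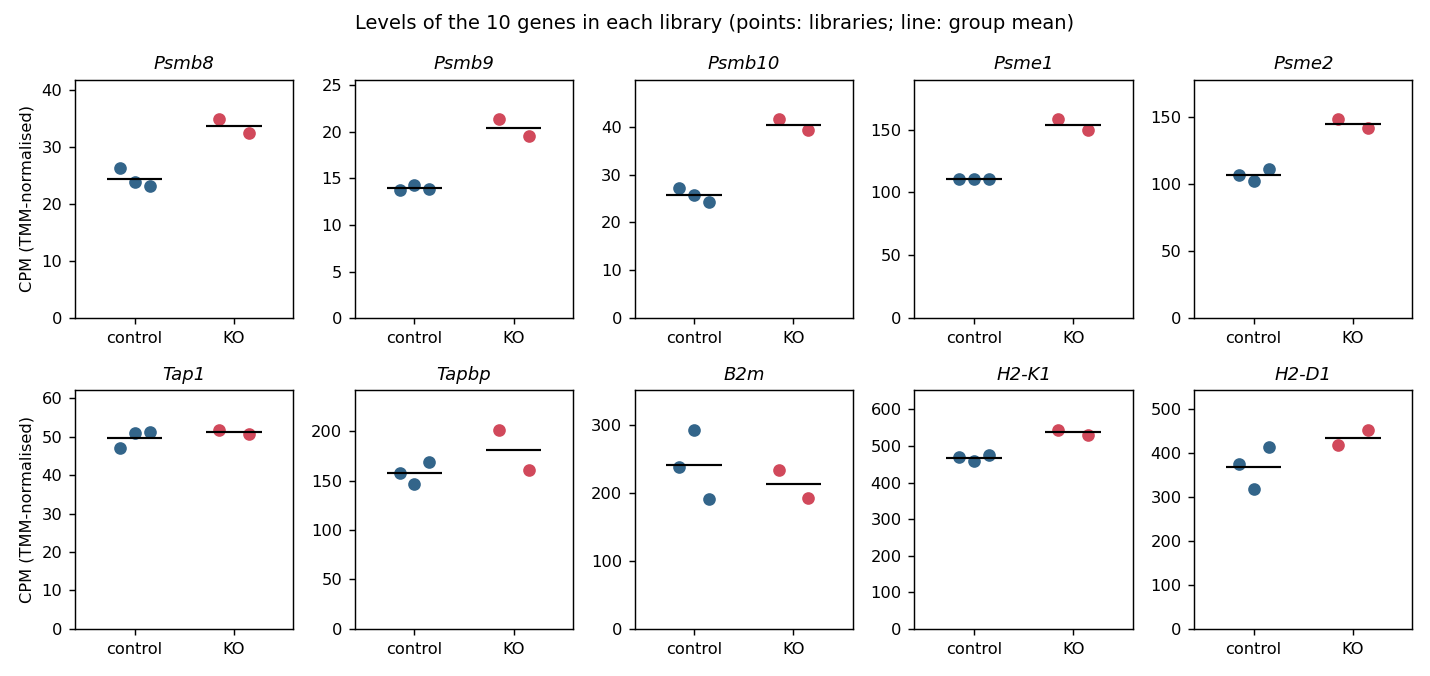
Level of each of the 10 genes in each library, in TMM-normalised CPM on axes that start at 0, with one point for each library (3 control, 2 KO) and a line at the group mean. Both KO points lie above all control points for Psmb8, Psmb9, Psmb10, Psme1, Psme2, H2-K1 and H2-D1, and the groups overlap for Tap1, Tapbp and B2m.

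The promoters differ in the elements they hold, and the stretches below are shown because the immunoproteasome, class I and B2m genes are textbook targets of the interferon, NF-kappaB and NLRC5 routes. Each is 30 bases, read 5′ to 3′ on the gene's own strand, from the RefSeq promoter table of GRCm38.p6, of which the 250 bases before each start were searched. Capitals mark the matched motif.
Psmb8: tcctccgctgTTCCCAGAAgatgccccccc
Tap1: tttCCAATcagcggctgcgcgcggtgcagg
Tap1: cccagagacaggTGACGacagagggtcctg
H2-K1: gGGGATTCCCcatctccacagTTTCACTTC
H2-D1: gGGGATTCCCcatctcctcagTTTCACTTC
B2m: tGAAACTGAAaatgggaaagtccctttgta

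The Psmb8 stretch (chr17:34198088-34198117, plus strand) holds a GAS element, a site of interferon-responsive promoters, searched as TTCNNNGAA. The Tap1 stretches (chr17:34187331-34187360 and chr17:34187458-34187487, plus strand) hold CCAAT and TGACG, the letters searched for as a Y box and the core of an X2 box. These matches begin 222 and 86 bases before the Tap1 start. Both lie in the 225 bases between the starts of Psmb9 and Tap1, which are read away from each other, so the windows of Psmb9 and Tap1 share them. H2-K1 (chr17:34000429-34000458, minus strand) and H2-D1 (chr17:35262923-35262952, plus strand) were identical at 29 of 30 bases. Their capitals mark the core GGGATTCCC of enhancer A, an NF-kappaB site, and the core TTTCACTTC of the class I interferon element. B2m (chr2:122147547-122147576, plus strand) held an interferon regulatory factor element, searched as GAAANNGAA.

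Among 32851 promoter windows of the same length, searched on both strands, GGGATTCCC occurred in 0.301% and TTTCACTTC in 0.402%. TTCNNNGAA occurred in 7.02%, GAAANNGAA in 7.13%, TGACG in 17.8% and CCAAT in 33.8%. The windows of Psmb10 and Psme1 held none of these 6 motifs, Tapbp held CCAAT only and Psme2 held TGACG only, while B2m, H2-K1 and H2-D1 held both CCAAT and TGACG. Alternative transcripts in GENCODE place exons over the Psmb8 and H2-D1 stretches, and exons of Psmb9 over those of Tap1. The motifs were chosen after the sequences and expression values had been seen, and a match is a description of letters, not of binding.

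Among the catalytic subunits, Psmb10 had the largest difference between the groups. Psmb10 encodes beta2i, the trypsin-like subunit (Entrez 19171, chromosome 8, 105935728 to 105938392, minus strand, with this and all later positions on GRCm38). It had 27.2, 25.8 and 24.2 CPM in the controls and 41.5 and 39.4 CPM in KO. The lowest KO library was well above the highest control, and the control values lay close together. The log2 fold change was 0.65 (SE 0.12, edgeR, adjusted p = 0.0231), a level 1.57-fold higher.

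Psmb9 encodes beta1i (Entrez 16912, chromosome 17, 34182030 to 34187330, minus strand) and was the least abundant of the 10 genes per transcript length. Its level was 13.7, 14.3 and 13.9 CPM in the controls and 21.3 and 19.5 CPM in KO. The controls spanned less than 1 CPM and both KO libraries stood apart from them. The log2 fold change was 0.55 (SE 0.13, edgeR, adjusted p = 0.0433), or 1.46-fold. Psmb8 encodes beta5i, the chymotrypsin-like subunit (Entrez 16913, chromosome 17, 34198195 to 34201454, plus strand). It had 26.3, 23.9 and 23.3 CPM in the controls and 34.9 and 32.5 CPM in KO. The groups did not overlap, but the difference of 0.46 (SE 0.12, edgeR, adjusted p = 0.0632) missed the threshold of 0.05.

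The PA28 activator is built from the products of Psme1 and Psme2, which are neighbours on chromosome 14 (55578494 to 55581527, plus strand, and 55587440 to 55591101, minus strand). Psme1 (Entrez 19186) had 111 CPM in each of the 3 controls and 158 and 150 CPM in KO. It was the steadiest of the 10 genes across controls, with an SD of 0.122 CPM, and its log2 fold change was 0.47 (SE 0.11, edgeR, adjusted p = 0.0432). Psme2 (Entrez 19188) had 107, 102 and 111 CPM in the controls and 148 and 142 CPM in KO. Its groups did not overlap either, and its log2 fold change of 0.44 (SE 0.11, edgeR, adjusted p = 0.0553) missed the threshold. Of the Psme2 transcript, 44.5% of 100-base windows also occur in Psme2b, a near copy, so its count is uncertain wherever shared reads were split or dropped.

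Neither the transporter nor the loading chaperone passed the test, and the groups overlapped for both. Tap1 encodes one chain of the TAP peptide pump (Entrez 21354, chromosome 17, 34187556 to 34197225, plus strand). It had 47.1, 50.9 and 51.1 CPM in the controls and 51.7 and 50.6 CPM in KO. The log2 fold change was 0.04 (SE 0.11, edgeR, adjusted p = 0.869). Tapbp encodes tapasin, which bridges TAP and the class I molecule (Entrez 21356, chromosome 17, 33919478 to 33929290, plus strand). It had 158, 147 and 169 CPM in the controls and 201 and 161 CPM in KO, so KO 1 was high and KO 2 lay among the controls. Its log2 fold change was 0.20 (SE 0.13, adjusted p = 0.41).

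Among the class I chains themselves, neither the heavy chains nor the light chain passed the test. H2-K1 (Entrez 14972, chromosome 17, 33996012 to 34000619, minus strand) had 470, 458 and 474 CPM in the controls and 543 and 531 CPM in KO. The groups did not overlap, yet the log2 fold change was only 0.20 (SE 0.11, edgeR, adjusted p = 0.308). H2-D1 (Entrez 14964, chromosome 17, 35263094 to 35267497, plus strand) had 374, 319 and 414 CPM in the controls and 418 and 452 CPM in KO. KO 1 lay just above the highest control, and the log2 fold change was 0.24 (SE 0.13, adjusted p = 0.329). B2m (Entrez 12010, chromosome 2, 122147687 to 122153082, plus strand) had 238, 292 and 191 CPM in the controls and 234 and 192 CPM in KO. It was the most variable of the 10 genes across controls, the groups overlapped, and the log2 fold change was -0.18 (SE 0.17, adjusted p = 0.595).

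By role, the 5 proteasome genes had log2 fold changes between 0.44 and 0.65 with a median of 0.47, and KO lay above all controls in 5 of 5. The 5 loading and presentation genes ranged from -0.18 to 0.24 with a median of 0.20, and KO lay above all controls in 2 of 5. Over all tested genes KO lay above all controls in 19.9%. Taking the 10 genes as deviations from their own control means, the median deviation was 0.41 in KO 1 and 0.35 in KO 2 on the log2 scale. The control medians are held near 0 by this centring and are not compared with these.

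Fold changes in this comparison followed transcript length across the whole table. The median log2 fold change was 0.46 for genes with transcripts under 1000 bases, 0.21 from 1000 to 2000 bases, -0.01 from 2000 to 4000 bases and -0.22 from 4000 bases on. The share of genes that passed as higher fell along the same bins, at 23.3%, 4.17%, 0.533% and 0.163%. B2m (860 bases) and Psme2 (962 bases) are in the shortest bin. Psme1 (1112 bases), Psmb10 (1311 bases), Psmb9 (1352 bases), H2-K1 (1619 bases) and Psmb8 (1628 bases) are in the next. H2-D1 (2102 bases), Tapbp (2898 bases) and Tap1 (2953 bases) are in the third. The proteasome genes are therefore the shorter ones of the set, apart from B2m and H2-K1. Psme2 lay a little above the median of genes of its length and Psme1 further above it, both within the quartiles. Psmb8, Psmb9 and Psmb10 lay above the upper quartile, and B2m far below the median.

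**Figure D2:**
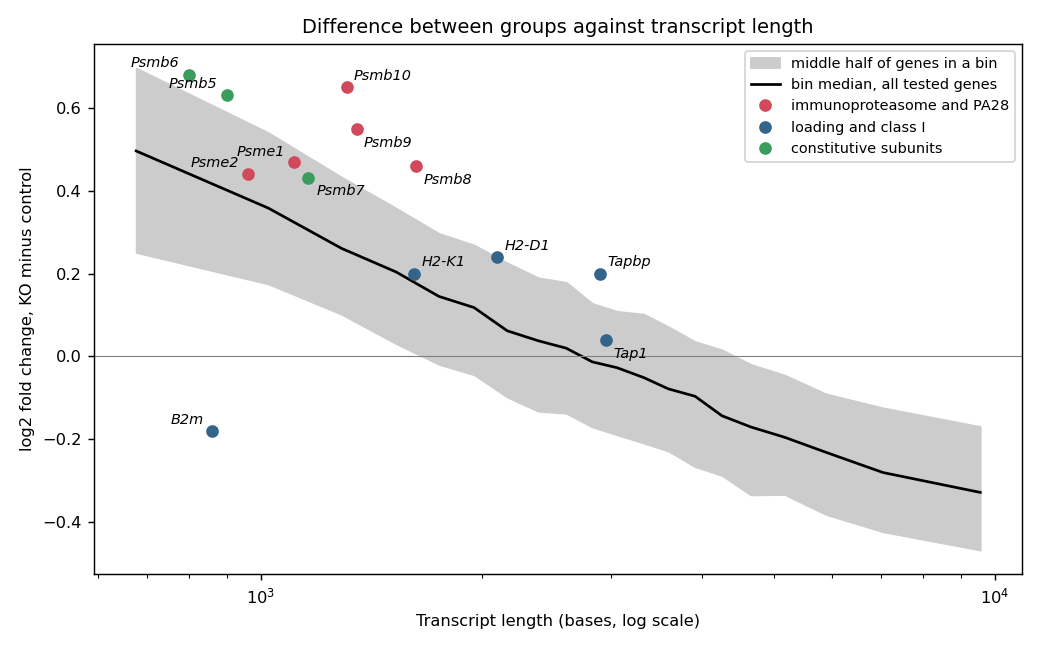
log2 fold change (KO minus control) of the 10 genes and of the 3 constitutive subunits against transcript length in bases on a log axis. The black line is the median and the grey band the range between the quartiles of all tested genes with a length in 20 bins of equal size. Psmb8, Psmb9, Psmb10 and Tapbp lie above the band, as do the constitutive subunits Psmb5 and Psmb6, H2-D1 lies at its upper edge, Psme1 and Psme2 within it, and B2m is the farthest below the line.

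The comparison was therefore also fitted with an offset for each gene and library that takes out a smooth trend with transcript length and GC content. Under that fit 0 of the 10 genes passed as higher (1.72% of all tested genes did), 3 of the 10 had an unadjusted p under 0.05 (edgeR, beside 18.3% of all tested genes), and the median log2 fold change of the 10 was 0.10. Psmb10 was at 0.32 (edgeR, adjusted p = 0.134), Psmb9 at 0.25 (adjusted p = 0.243) and Psmb8 at 0.22 (adjusted p = 0.308). Psme1 was at 0.11 and Psme2 at 0.04, with adjusted p-values of 0.498 and 0.811. The standard error was 0.11 for each of the 3 catalytic subunits and 0.08 for both PA28 genes. H2-D1, Tapbp, Tap1 and H2-K1 were at 0.09, 0.13, -0.03 and -0.04.

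B2m was the exception in the other direction. With length and GC offsets its log2 fold change was -0.49 (SE 0.08, edgeR, adjusted p = 0.00737), and it passed as lower, as did 0.687% of all tested genes. With offsets on length alone none of the 10 passed in either direction (0.0114% of all tested genes passed as higher and 0.0172% as lower). At an unadjusted p under 0.05 (edgeR) there were 2 of the 10, beside 11.2% of all tested genes, and B2m was at -0.64 (SE 0.16, adjusted p = 0.22). B2m has the lowest GC content of the 10 transcripts, 41.2% against 52.8% to 57.3% in the others. Its uncorrected CPM overlapped between the groups, so this call rests on the correction. Whether RNA integrity or library preparation moves with the length trend was not tested, and no value for either is given in the sources used here.

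**Figure D3:**
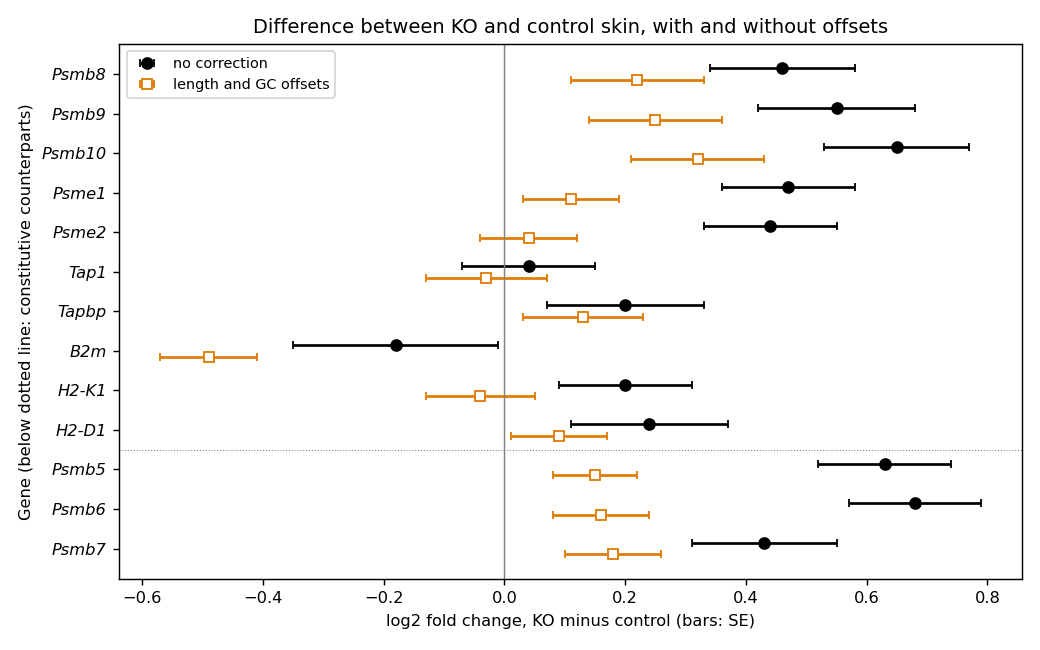
log2 fold change (KO minus control, bars show the standard error) of each gene without correction (black circles) and with length and GC offsets (open squares), with the constitutive subunits below the dotted line. Without correction the 5 proteasome genes lie between 0.44 and 0.65, and with offsets between 0.04 and 0.32, while B2m moves from -0.18 to -0.49.

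In all 3 constitutive subunits that the immunoproteasome subunits replace, both KO libraries lay above every control, beside 19.9% of all tested genes. In edgeR 2 of the 3 passed as higher. This was so for 2.71% of all tested genes and 23.3% of those with transcripts under 1000 bases. Psmb5 (beta5) had 105, 99.1 and 110.0 CPM in the controls and 161 and 162 CPM in KO. Psmb6 (beta1) had 216, 217 and 238 CPM in the controls and 355 and 360 CPM in KO. Both passed, with log2 fold changes of 0.63 and 0.68 (edgeR, adjusted p = 0.0221 and 0.0203). Psmb7 (beta2) had 198, 235 and 205 CPM in the controls and 285 and 290 CPM in KO. Its log2 fold change of 0.43 (edgeR, adjusted p = 0.0729) missed the threshold. All 3 transcripts are short (899, 798 and 1160 bases). Under the length and GC correction their log2 fold changes were 0.15, 0.16 and 0.18, and none passed. Of the Psmb5 transcript, 24.9% of 100-base windows occur elsewhere, mainly in Gm3375.

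Whether the mix shifted from constitutive to immunoproteasome subunits was asked with the ratio of counts within a library, which does not depend on scaling. The ratio of Psmb8 to Psmb5 was 0.251, 0.242 and 0.213 in the controls and 0.218 and 0.200 in KO, overlapping. Psmb9 to Psmb6 was 0.0633, 0.0659 and 0.0583 in the controls and 0.0599 and 0.0542 in KO, also overlapping. Psmb10 to Psmb7 was 0.138, 0.110 and 0.118 in the controls and 0.146 and 0.136 in KO, where KO 2 lay just under control 1. The differences in mean log2 ratio were -0.17, -0.13 and 0.21, each with a two-sided exact permutation p of 0.3. The p is the share of the 10 ways to split the libraries with a difference at least as large in size, so 3 against 2 cannot go below 0.1. The test could therefore not pass 0.05 at any size of shift. The difference was negative for 2 of the 3 pairs and positive for the other. These count ratios carry the length trend, and the immunoproteasome transcript was the longer in each pair (1628 against 899, 1352 against 798 and 1311 against 1160 bases). With length and GC offsets the log2 fold changes were 0.22 against 0.15, 0.25 against 0.16 and 0.32 against 0.18. The immunoproteasome subunit was thus the higher in each pair under this fit, with standard errors of 0.07 to 0.11. Other offset fits did not all keep this order. With length offsets on the longest annotated transcripts, Psmb10 was at 0.34 and Psmb7 at 0.39, while the other pairs kept it. With length offsets without KO 1, Psmb8 was at 0.20 and Psmb5 at 0.23. Psmb9 was then at 0.22 and Psmb6 at 0.24, while Psmb10 stayed above Psmb7. The order was not tested.

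Psmb9 and Tap1 start 225 bases apart and are read in opposite directions, and of the pair Psmb9 passed the test and Tap1 did not. The ratio of Psmb9 to Tap1 was 0.290, 0.280 and 0.271 in the controls and 0.411 and 0.385 in KO. Both KO libraries lay above all controls, with a difference of 0.50 in mean log2 ratio (two-sided exact permutation p = 0.1, the smallest this design allows). The annotation lets the 2 genes overlap on opposite strands, and the strand setting of the counts is not given, so reads in the overlap could be assigned to either. Psmb9 is also the shorter of the pair (1352 against 2953 bases), and their difference with length and GC offsets was that between 0.25 and -0.03. The ratio of B2m to H2-K1, light chain to heavy chain, was 0.506, 0.638 and 0.403 in the controls and 0.430 and 0.361 in KO. Its groups overlapped, with a difference of -0.36 (two-sided exact permutation p = 0.3). These 2 ratios were chosen after the values had been seen, and the Benjamini-Hochberg adjusted p was 0.3 for each of the 5 ratios.

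**Figure D4:**
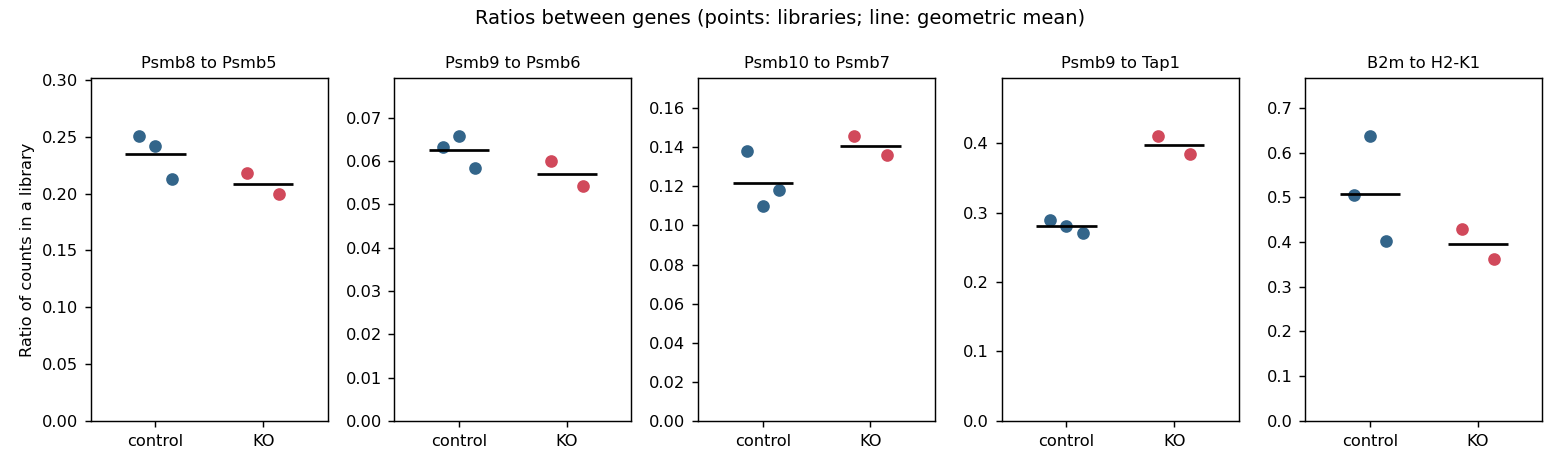
Ratio of counts between 2 genes in each library, on axes that start at 0, with a line at the geometric mean of each group (3 control and 2 KO libraries). Control and KO points overlap in range for each pair except Psmb9 to Tap1, where KO lies at 0.411 and 0.385 and the controls at 0.290 or less.

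Levels can be set against each other per transcript length. In controls the order in CPM per kilobase was H2-K1 (289 ± 5.0, SD, n = 3), B2m (280 ± 58.9), H2-D1 (176 ± 22.8), Psme2 (111 ± 4.77), Psme1 (100 ± 0.11) and Tapbp (54.5 ± 3.74). Psmb10 (19.6 ± 1.15), Tap1 (16.8 ± 0.767), Psmb8 (15.1 ± 0.979) and Psmb9 (10.3 ± 0.233) followed. H2-K1 and B2m did not differ beyond their spread. The constitutive subunits stood far above their counterparts on the same scale, at 280 ± 15.5 for Psmb6, 183 ± 17 for Psmb7 and 116 ± 5.83 for Psmb5. Per length, each immunoproteasome subunit was at 0.032 to 0.139 of its constitutive counterpart in every library. These ratios between genes carry the length trend of each library.

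The rest of the pathway was read from lists of related genes. Of 8 proteasome assembly factors and other activators, 1 passed as higher and none as lower, beside 2.71% and 1.05% of all tested genes. The gene that passed, Psmg4, has a transcript of 555 bases, and 23.3% of genes under 1000 bases passed as higher. Psmg4, a chaperone of proteasome assembly, had 17.7, 15.5 and 18.9 CPM in the controls and 28.8 and 27.3 CPM in KO, a log2 fold change of 0.70 (edgeR, adjusted p = 0.0258) that was 0.09 with length and GC offsets. Psmg3 was at 0.54 and Pomp, the maturation protein of new particles, at 0.36 (adjusted p = 0.0565 and 0.113), and Psme4 was at -0.16. None of 6 other loading genes passed in edgeR, and 0 had an unadjusted p under 0.05, beside 21.9% of all tested genes. Erap1, which trims peptides, was at -0.27, the chaperone Calr at -0.18, Pdia3 at 0.22 and Tapbpl at 0.12, and Tap2, the partner chain of Tap1, at 0.06.

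Of 17 other class I heavy chain genes, 12 were tested and none passed in edgeR, with 3 at an unadjusted p under 0.05, beside 21.9% of all tested genes. H2-T22, H2-Q7, H2-T23 and H2-Q10 had log2 fold changes of 0.29, 0.39, 0.27 and 0.39, with adjusted p-values from 0.172 to 0.397. KO lay above all controls in 4 of the 12 tested genes, beside 19.9% of all tested genes. H2-Q10 was not among these 4, since its groups overlapped. Reads of these genes and of H2-D1 can be shared, since 4.64% of the 100-base windows of H2-D1 occur in other class I genes. Among other partners of B2m, Cd1d1 fell, as given above. Fcgrt, the neonatal Fc receptor, was at 0.31, Hfe, which acts in iron control, at 0.28 and Mr1, which presents vitamin metabolites, at -0.35. None of these 3 passed, beside 2.71% higher and 1.05% lower over all tested genes.

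Of 13 factors that act on class I promoters none passed in edgeR, with 3 at an unadjusted p under 0.05, again beside 21.9% of all tested genes. Their median log2 fold change was -0.11, and -0.05 with length and GC offsets. KO lay above all controls in 0 of the 13 and below all of them in 5, which was so for 20% of all tested genes. Nlrc5, the class I transactivator, had 14.9, 12.7 and 13.2 CPM in the controls and 11.5 and 10.7 CPM in KO, below every control (log2 fold change -0.30, edgeR, adjusted p = 0.255, and -0.09 with length and GC offsets). Rfx5, a subunit of the X box complex, was at -0.42, Creb1 at -0.42 and Nfkb1 at -0.27, with adjusted p-values of 0.171, 0.184 and 0.203. Once length and GC were corrected for, they stood at -0.30, -0.03 and -0.21. Irf1, an interferon-induced factor that acts on these promoters, was at 0.06.

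Interferon genes and their receptors gave no call either, with 10 of 12 tested in edgeR and 3 of these at an unadjusted p under 0.05, beside the same 21.9%. Ifng had 0 counts in all 5 libraries, which allows up to 0.0379 to 0.0927 CPM (without TMM factors) by counting error alone. Ifnb1 had 2 counts in control 3 and 0 elsewhere. Socs1, which is induced by interferon and limits it, had 13.0, 15.7 and 18.0 CPM in the controls and 22.2 and 24.7 CPM in KO, without overlap (log2 fold change 0.59, edgeR, adjusted p = 0.0625). Ifngr2, a chain of the interferon gamma receptor, was at 0.33 (adjusted p = 0.117) and passed with length and GC offsets at 0.42 (adjusted p = 0.0174). Jak2 and Tyk2 were at -0.37 and -0.23. Among 6 genes of the cells that read class I, 4 were tested and none passed, beside 2.71% higher and 1.05% lower over all tested genes. Klrk1, Prf1, Klrd1 and Gzmb were at 0.38, 0.42, 0.35 and 0.44, with adjusted p-values from 0.318 to 0.777, and Cd8a had 2 to 24 counts a library.

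Markers of the cells that carry much of this machinery were summed in each library. Beside each count of passing markers below stands the share over all tested genes, 2.71% higher and 1.05% lower. The 5 leukocyte markers summed to 183 to 206 CPM in the controls and to 251 and 222 CPM in KO, and 1 of 5 passed (Cd52, log2 fold change 0.58, edgeR, adjusted p = 0.0313). The Cd52 transcript has 514 bases, and its log2 fold change was 0.02 with length and GC offsets. The 5 dendritic and Langerhans cell markers summed to 1000 to 1100 CPM in the controls and to 1400 and 1280 CPM in KO. Of these 1 of 5 passed (H2-Ab1, 0.49, edgeR, adjusted p = 0.0447), at 0.14 with length and GC offsets. The dendritic sum came mostly from H2-Ab1 and Cd74, with control means of 570 and 432 CPM. The pan-leukocyte gene Ptprc was at -0.20 and Cd207, of the dendritic and Langerhans cell list, at 0.24, and neither passed. Itgax had the lowest value of the dendritic list, -0.21, while Cd74 and Flt3 were at 0.21 and 0.32. The 6 T cell markers summed to 52.3 to 60.4 CPM in the controls and to 74.6 and 63.7 CPM in KO, and 0 of 6 passed. The 5 macrophage markers summed to 286 to 323 CPM in the controls and to 374 and 318 CPM in KO, and 0 of 5 passed. Trac, the constant region of the T cell receptor alpha chain, stood at 0.489 CPM in controls and 0.117 CPM in KO (log2 fold change -2.05, adjusted p = 0.0661). The other 5 T cell markers were on the other side, with Cd3d at 0.54, Trbc2 at 0.44, Cd3g at 0.34, Cd3e at 0.11 and Trdc at 0.04. Other cell types were summed in the same way, and not all sums rose. The 5 endothelial markers summed to 196 to 208 CPM in the controls and to 187 and 173 CPM in KO. Fibroblast, Schwann cell and mast cell sums in KO lay within the control range, and the suprabasal keratinocyte sum lay above it. The 5 muscle markers summed to 2970 to 3200 CPM in the controls and to 3760 and 4390 CPM in KO, and 1 of 5 passed (Mylpf, 0.60). With length and GC offsets Mylpf was at 0.12, and Ckm passed instead at 0.39 (edgeR, adjusted p = 0.0346). The 4 adipocyte markers summed to 558 to 929 CPM in the controls and to 1120 and 974 CPM in KO. Of these 1 of 4 passed (Cfd, 0.71), at 0.21 with length and GC offsets. The 5 basal keratinocyte markers summed to 14400 to 16500 CPM in the controls and to 17300 and 17700 CPM in KO. Of these Itga6 passed as lower (-0.78, and -0.64 with length and GC offsets), while Krt5, Krt14 and Krt15 were at 0.15, 0.17 and 0.29. No leukocyte, dendritic, T cell or macrophage marker was at 0 counts in all libraries, and with length and GC offsets none of them passed. Their part in the proteasome genes' difference was not tested.

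The genes whose profile over the 5 libraries was most like the median profile of the 10 were Slc46a2, Mrpl51, Msrb1 and Park7. They were ranked by Euclidean distance between centred log2 profiles among 10264 other genes with a mean of at least 10 CPM. Their distances were 0.048, 0.057, 0.058 and 0.061. Their log2 fold changes were 0.38 or 0.39. Closeness to the median of the 10 genes follows from this choice, which used the same 5 libraries. None of them passed the test (edgeR, adjusted p = 0.0784 to 0.089).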

How the data were processed

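RNA was extracted with a kit for fibrous tissue and the libraries were made by a sequencing service, per the labels' protocols. The deposited table holds raw counts per gene, not normalized by the authors. Per the submitters' processing notes, the tools were FastQC, HISAT2 2.0.4 and DESeq2 1.16.1, with the build GRCm38 (mm10). The sources used here do not state the counting program, its strand setting or how it treated shared reads. Such choices bear on overlapping genes (Psmb9 with Tap1, Psme1 with Emc9, B2m with Patl2, Tapbp with Zbtb22) and on near copies.

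Samples were grouped by title. Of the 27179 identifiers, 25275 had a RefSeq symbol, and filterByExpr kept 17472. Libraries were scaled with TMM (factors 0.936 to 1.065), and KO was tested against control with edgeR 4.0.16 in R 4.3.3 (quasi-likelihood F test, robust, biological coefficient of variation 0.154). P-values were adjusted by Benjamini-Hochberg over all tested genes, with a threshold of 0.05. Transcript length and GC content came from the longest GENCODE transcript paired with a RefSeq transcript and covered 90.5% of tested genes. This choice was made after the longest annotated transcripts of some members were seen to be retained-intron models. Offsets were smooth trends in each library, fitted with mgcv 1.9.3. Windows of 100 bases were counted as shared where they occurred in an annotated transcript of another gene.

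The members and the gene lists were chosen with earlier results of these data known. The named genes are the 10 members, their 3 constitutive counterparts, Cd1d1, every called gene and up to 4 genes of smallest p in each other list, and the 4 nearest profiles. Irf1, Tap2, Ptprc, Cd207, Itgax, Cd8a and Trdc were named after their values were seen. The value of 1 listed regulator is not reported here. The alternatives were other scalings, filters and tools (DESeq2 1.42.0, limma 3.58.1), a replicate block, offsets, and leaving out each library.

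Libraries of a group differed by far more than sampling noise (chi-square over degrees of freedom 24 to 80.7), so none was the same library deposited again; separate mice are not shown by this. The comparison of KO with control was tested on simulated data over 17177 genes. Of genes made to differ 1.5-fold it found 22%, of those at 2-fold 66%, at 3-fold 84% and at 4-fold 90%, and 20 of 151 calls were false. With a length trend added to both KO libraries (-0.3 in log2 per SD of log2 length, 17224 genes), 1898 of 2041 calls were false without offsets. With length offsets 14 of 144 were false. Offsets for length and GC together were not simulated. The size of the added trend was set by hand, so these shares do not give the share of false calls in the data.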

Additional observations from a re-analysis of the deposited data

How the results depend on the processing

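The number of members that passed as higher (3) depended on the setting. It was 1 (Psmb10) with library size scaling, 5 (the whole proteasome side) with the DESeq2 test and with limma voom, and 4 with a replicate block, without a count filter and with a filter of 1 CPM in 2 libraries. It was 0 with length offsets, with length and GC offsets, with the replicate block and length offsets together, and with length offsets on the longest transcripts. Leaving out a library gave 0 to 5, with 0 without control 1, KO 1 or KO 2, 4 without control 2 and 5 without control 3. Where 1 KO library was left, it was assumed to vary like the controls. Length offsets without KO 1 or KO 2 (chosen, like the longest transcripts, after the data were seen) gave 0. The number lower (0) was 1, B2m, with length and GC offsets and with the replicate block and length offsets together (-0.77, adjusted p = 0.0359). The direction of Psmb8, Psmb9, Psmb10, Psme1, Tapbp and H2-D1 was upward in all 20 alternatives, Psme2 ranged from 0.00 to 0.47, Tap1 from -0.10 to 0.10, H2-K1 from -0.04 to 0.22 and B2m from -0.77 to -0.01.

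The median log2 fold change of the 10 genes (0.34) was 0.19 with library size scaling, which lowers the median of all genes from -0.02 to -0.16, so the distance between the medians stayed at 0.36. It was 0.31 with limma voom, 0.38 with the replicate block, 0.12 with length offsets, 0.10 with length and GC offsets, 0.16 with the replicate block and length offsets, 0.13 with the longest transcripts, 0.30 to 0.41 when a library was left out, and 0.07 and 0.10 with length offsets without KO 1 or KO 2.

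Over all genes, 474 passed as higher and 183 as lower (72.1% higher). Higher and lower counts were 268 and 974 with library size scaling (21.6% higher), 1102 and 732 with DESeq2 (60.1%), 2687 and 2201 with limma voom (55.0%), 1235 and 802 with the replicate block (60.6%), 2 and 3 with length offsets (40.0%), 301 and 120 with length and GC offsets (71.5%), 130 and 29 with both block and length offsets, and 13 and 5 with the longest transcripts. Without a count filter 355 were lower. Leaving out a library gave 0 to 1842 higher and 0 to 1435 lower, and with length offsets without a KO library 0 to 74 higher and 0 to 4 lower. Without control 1, 0 genes passed in either direction, with 2253 at an unadjusted p under 0.05 (edgeR). The cause of these shifts was not tested.

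Replicate numbers were not stated to pair the libraries. Deviations from group means correlated at 0.016 and 0.064 in the same-numbered pairs, so the replicate block is given here only. The 3 planned ratios, taken on counts without offsets, kept their direction when each library was left out. Psmb8 to Psmb5 ranged from -0.24 to -0.11, Psmb9 to Psmb6 from -0.20 to -0.06 and Psmb10 to Psmb7 from 0.14 to 0.31. With 3 and 2 libraries, changes near 1.5-fold, the size of those described here, would often be missed.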
